A study of Mus musculus with 24 samples.

Results

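Nuclear factor kappa B (NF-kB) is a family of transcription factors that act as pairs of subunits, and the 36 genes described here encode its subunits, the inhibitors that hold them in the cytoplasm, the kinases and adaptors that release them, and well-known feedback and target genes. They were chosen by name from 24982 genes counted in 24 bulk RNA-seq libraries of mouse bone marrow eosinophils. Earlier results of these data were known when they were chosen. By role they comprise 5 subunits, 5 members of the IkB inhibitor family, 9 kinases, 6 receptors and adaptors, 6 feedback genes and 5 further targets, and all 36 passed the filter on low counts. Eosinophils of 4 successive maturation stages, I to IV, were sorted from wild type C57BL6 mice, either in the steady state or after 7 daily intraperitoneal injections of 400 ng recombinant mouse IL-33, which induce eosinophilia. Each of the 8 groups held 3 libraries, and each library came from marrow pooled from 3 mice. No injection is given in the labels for the steady state mice, and their age and sex were not among the labels. Magnetic beads took out cells positive for CD45R, NK1.1, CD90.2 or Ly6G. The stages were then separated by flow cytometry with CD200R3, Pir-A/B, CD117, CD55, Siglec-F, F4/80 and CD29, to a stated purity of at least 95%.

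In resting cells the inhibitor IkB-alpha, the product of Nfkbia, masks the subunits RelA, c-Rel and p50. Signals through the IL-33 receptor and other receptors of its family pass by MyD88, the IRAK kinases and TRAF6 to the IKK kinases, which mark the inhibitor for destruction and free the subunits to enter the nucleus. Many of the genes then transcribed, among them Nfkbia, Nfkbie and Tnfaip3, encode proteins that shut the pathway off again. A separate branch runs through the kinase NIK, encoded by Map3k14, to the subunit pair p52 and RelB, and is restrained by Traf2, Traf3, Birc2 and Birc3. In eosinophils the pathway is known for supporting survival and cytokine release. RNA levels record the supply of these components and not the activity of the proteins.

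The gene counts ran from 8335138 to 14909453 per library. Levels below are counts per library size (CPM), scaled with edgeR's TMM factors, and folds, log2 differences with their standard errors (SE) and adjusted p-values come from 1 edgeR quasi-likelihood fit over 12743 genes, with a gene called at an adjusted p under 0.05. The summed level of 9 eosinophil markers was 20772 to 40013 CPM in all groups but steady state stage IV, where it was 4573 to 8055 CPM and eosinophil peroxidase, Epx, averaged 21.8 CPM. Markers of other cell types were also present: 10 neutrophil genes summed to 15983 to 25326 CPM in steady state stage II against 1246 to 3906 CPM in stage II under IL-33, and 14 monocyte and macrophage genes summed to 3003 to 3468 against 1763 to 2008 CPM. The 7 basophil and mast cell genes summed to 1031 to 2989 CPM in steady state stage II and 33.2 to 671 in stage IV, and the 6 T and NK cell genes to 732 to 1156 CPM in steady state stage I and 38.3 to 52.7 in stage IV. The 6 B cell genes summed to 22.1 to 90.4 CPM over all libraries, and up to 1, 3 and 3 genes of these lists were at 0 in a group. In such bulk samples fewer cells of a type and less RNA per cell cannot be told apart.

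The 4 steady state libraries numbered 3 stood apart from the other 20 libraries for 6 of the 36 members, so the calls below are given with and without them. Without them each steady state group has 2 libraries and 12913 genes were tested. The inhibitor gene Nfkbia was at 1918 to 4316 CPM in these 4 libraries and at most 1266 in any other, and the gene of the deubiquitinase A20, Tnfaip3, was at 1795 to 2572 CPM against at most 309.8. Nfkbiz lay at 541.6 to 595.6 against at most 131.5 CPM, Rel at 125.5 to 151.7 against at most 39.1, Birc2 at 113 to 157.7 against at most 102.9, and Cd83 at 10.2 to 67.5 against at most 2.87. Of all genes tested, 1.08% lay above the other 20 libraries in all 4 and 0.275% lay below them. Of 12 early stress response genes fixed as a list, Jun, Atf3 and Klf6 also lay above the other 20 in all 4 libraries, and the list summed to 20665 to 34246 CPM there against 5462 to 18320 CPM elsewhere. Its part in the results was not tested.

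The promoters of members whose levels changed most often, or that stood apart in the libraries numbered 3, are shown as a description. A link between their sequence and those values was not tested. The tables of RefSeq promoters (250 bases before to 50 after the start, build GRCm38.p6) held 38 promoters for 30 of the 36 members. Both strands were searched for the kappaB consensus, the decameric site that NF-kB dimers bind, and for a stricter overlapping form, GGG, any 3 bases and TTCC. The consensus matched in 11 of the 30 members (36.7%), against 9.55% of 27025 genes with a promoter listed, and the stricter form in 9 of the 30 (30%) against 6.31%. By promoter the consensus was found in 14 of 38 (36.8%) against 8.46% of 32851, and the stricter form in 31.6% against 5.56%. A match describes the letters only and not binding. The first 4 below follow the rule of most called comparisons among members with a match, and Nfkbia and Tnfaip3 were added after their values were seen. Each is printed 5′ to 3′ on the gene's own strand, with the bases of a consensus match on either strand in capitals.
Tnfaip2: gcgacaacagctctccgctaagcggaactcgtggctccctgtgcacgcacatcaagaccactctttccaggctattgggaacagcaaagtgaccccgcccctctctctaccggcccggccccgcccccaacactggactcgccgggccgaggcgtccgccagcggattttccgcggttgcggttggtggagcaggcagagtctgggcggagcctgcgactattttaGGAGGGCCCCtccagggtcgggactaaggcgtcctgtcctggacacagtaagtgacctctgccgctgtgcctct
Ier3: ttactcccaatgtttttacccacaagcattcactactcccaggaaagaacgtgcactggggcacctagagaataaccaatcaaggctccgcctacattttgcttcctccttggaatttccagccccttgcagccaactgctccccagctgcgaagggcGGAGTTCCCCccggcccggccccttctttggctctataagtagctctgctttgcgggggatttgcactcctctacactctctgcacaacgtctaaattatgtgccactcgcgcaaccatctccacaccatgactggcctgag
Nfkbie: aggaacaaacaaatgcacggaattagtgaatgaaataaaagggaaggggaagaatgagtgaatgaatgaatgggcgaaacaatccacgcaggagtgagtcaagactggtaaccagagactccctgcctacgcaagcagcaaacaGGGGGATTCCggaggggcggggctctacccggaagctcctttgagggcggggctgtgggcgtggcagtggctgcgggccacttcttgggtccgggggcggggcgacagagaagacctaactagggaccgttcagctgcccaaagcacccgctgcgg
Rel: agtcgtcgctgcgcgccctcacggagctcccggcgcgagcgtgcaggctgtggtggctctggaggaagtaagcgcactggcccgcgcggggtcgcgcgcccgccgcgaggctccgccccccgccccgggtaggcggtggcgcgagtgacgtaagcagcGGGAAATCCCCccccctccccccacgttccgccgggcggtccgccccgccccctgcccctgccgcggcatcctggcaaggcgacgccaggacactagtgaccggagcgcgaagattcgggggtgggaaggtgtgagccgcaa
Nfkbia: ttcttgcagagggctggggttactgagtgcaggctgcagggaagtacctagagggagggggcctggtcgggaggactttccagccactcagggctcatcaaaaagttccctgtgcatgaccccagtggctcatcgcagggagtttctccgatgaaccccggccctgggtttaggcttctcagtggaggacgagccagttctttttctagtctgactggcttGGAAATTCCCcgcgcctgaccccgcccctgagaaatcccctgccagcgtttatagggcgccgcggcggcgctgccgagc
Tnfaip3: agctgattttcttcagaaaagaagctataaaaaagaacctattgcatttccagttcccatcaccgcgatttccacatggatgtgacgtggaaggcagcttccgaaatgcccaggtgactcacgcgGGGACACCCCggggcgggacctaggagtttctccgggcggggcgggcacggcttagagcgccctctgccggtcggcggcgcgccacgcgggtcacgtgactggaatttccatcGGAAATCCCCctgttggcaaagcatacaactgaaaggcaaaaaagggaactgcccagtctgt
These windows are chr12:111442411-111442710 (+) for Tnfaip2, chr17:35821463-35821762 (+) for Ier3, chr17:45555450-45555749 (+) for Nfkbie, chr11:23770920-23771219 (−) for Rel, chr12:55492598-55492897 (−) for Nfkbia and chr10:19015361-19015660 (−) for Tnfaip3. Counted from the start site, with the first transcribed base as 1, the match began at -24 in Tnfaip2, -92 in Ier3, -106 in Nfkbie and -29 in Nfkbia. Rel had 2 overlapping matches from -92 and -91, and Tnfaip3 had 2 separate ones from -125 and -12. The stricter form was absent from the Tnfaip2 and Ier3 windows and present in the other 4. A second listed promoter of Tnfaip3, chr10:19011914-19012213 (−), is not printed and had 0 consensus matches and 1 of the stricter form.

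Relb, Map3k14, Birc3 and Nfkbie rose along steady state maturation and Ier3 fell. From stage I to IV, 10 members rose (Relb, Nfkbie, Bcl3, Map3k14, Irak2, Irak4, Tnfrsf1a, Zc3h12a, Birc3 and Gadd45b) and 2 fell (Ikbke and Ier3), with a member median of 0.53 on the log2 scale against -0.028 over all genes. Of all genes tested, 43.8% were called in this comparison and 21.1% were called higher, against 33.3% and 27.8% of the members. Without the libraries numbered 3, 15 members rose and 1 fell, 10 of them shared with the first fit, where 40.2% of all genes were called and 19.8% were higher. The count of calls ranged from 7 to 14 when 1 library was left out, and was 7 without library 1 of stage I. With library totals in place of TMM factors, 6 rose and 3 fell, while the median of all genes moved by -0.367. The replicate numbers paired these libraries, and with a block for the number 15 rose and 2 fell (6118 of 12743 genes called): Bcl3 was lost, and Nfkb2, Nfkbia, Nfkbib, Map3k8, Traf3 and Tnfaip2 were gained. Marker lists of other cells moved between the same stages: basophil and mast cell genes summed to 1679 CPM on average in stage I and 376 in stage IV, T and NK cell genes to 970 and 45.8, and neutrophil genes to 6701 and 17997. Of single markers, 4 of 7 basophil and mast cell genes were lower and 7 of 14 monocyte and macrophage genes higher, and the part of these cells in the members' results was not tested.

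The steps of steady state maturation called fewer members. From stage I to II, 3 rose, the kinase gene Chuk, the TNF receptor gene Tnfrsf1a and the target Tnfaip2, where 4.87% of all genes were called. Without the libraries numbered 3 the risers were Chuk, Tnfaip2, Map3k8 and Birc3 (4.16% of all genes called). The numbers paired these libraries, and with a block for the replicate number 5 rose: Chuk, Map3k8, Tnfrsf1a, Birc3 and Tnfaip2. The block also raised the calls over all genes, from 620 to 1069 of 12743. All 3 calls of the first fit were lost without library 1 or library 2 of stage I. Between these stages the neutrophil genes went from a sum of 2303 to 9707 CPM to 15983 to 25326, with no overlap and 1 of 10 called higher. Of the other markers, 8 of 14 monocyte and macrophage genes and 2 of 8 dendritic cell genes were higher, and their part in the result was not tested.

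From stage II to III, 6 members rose (Nfkbie, Ikbkb, Map3k14, Irak4, Tnip1 and Birc3) and 3 fell (Tnfrsf1b, Tnfaip2 and Ier3), where 34.6% of all genes were called. Without the libraries numbered 3 the counts were 7 and 3, with 35.9% of all genes called, and with library totals, which moved the median of all genes by -0.334, they were 4 and 3. From stage III to IV, 1 member rose, Tnfaip2, where 9.23% of all genes were called. When the libraries numbered 3 were left out, Tnfaip2 was not called and Ier3 was lower (6.47% of all genes called). With the block, whose numbers paired these libraries, Nfkbia, Map3k14 and Tnfaip2 rose and Ikbkb fell. Over all genes the calls went from 1176 to 1755 of 12743 with that block.

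Under IL-33 the 7 member calls made along single steps all fell between stages III and IV, where most calls over all genes fell too. No member was called from stage I to II or from II to III by edgeR, where 0.0942% and 0.0863% of all genes were called (12 and 11 genes), or by DESeq2, and 3 and 2 members had an unadjusted edgeR p under 0.05. From stage III to IV, 6 rose (Relb, Nfkbie, Irak4, Zc3h12a, Birc3 and Tnfaip2) and 1 fell (Tnfrsf1a). These were 19.4% of the members, where 29.1% of all genes were called. Beside them, 5 of 14 monocyte and macrophage genes and 5 of 10 neutrophil genes were higher: the first list summed to 2042 to 2219 CPM in stage III and 3703 to 3893 in stage IV, and the second to 2639 to 3857 and 5817 to 9926. The early stress response genes summed to 10621 to 15135 CPM and 17245 to 18320, with none of 12 called by edgeR (3 at an unadjusted p under 0.05, and 6 called higher without the libraries numbered 3). The part of these lists in the result was not tested. With library totals, which moved the median of all genes by -0.208, 4 rose and 3 fell. Leaving the steady state libraries numbered 3 out of the common estimate of the spread, with the IL-33 libraries the same, gave 15 higher and 3 lower members (36.9% of all genes called), among them all 7. In the fit of all libraries, Relb, Irak4 and Birc3 were called without any 1 library, while Nfkbie, Tnfrsf1a (adjusted p = 0.0632 without library 1 of stage III), Zc3h12a (adjusted p up to 0.107, without library 2 of stage III) and Tnfaip2 were lost in at least 1 such fit. From stage I to IV, 14 rose and 3 fell, with a median of 0.68 on the log2 scale against -0.032 over all genes. There 44.1% of all genes were called and 21.2% were higher, against 47.2% and 38.9% of the members. With the libraries numbered 3 left out, 19 rose and 3 fell, with 24.6% of all genes higher.

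Against the steady state, more members were lower than higher under IL-33, and Nfkb1 was higher at every stage. Averaged over the 4 stages, 20 of 36 members were lower and 2 higher, Nfkb1 and Ier3, with a median of -0.63 on the log2 scale against 0.052 over all genes. Of all genes tested, 38.1% were called and 16.7% were lower, against 55.6% of the members lower. Without the libraries numbered 3, 17 were lower and the same 2 higher, with a median of -0.32. The fits shared 16 calls, and Nfkb2, Nfkbiz, Traf6, Tnfaip3, Zc3h12a and Cd83 were no longer called. There 36.2% of all genes were called and 15.9% were lower. The average takes libraries of the 4 stages as independent, while same-numbered libraries of some stages deviated together within a condition. Its SE and p-values, here and for single genes below, may therefore be too small. By stage, 1 member was higher and 1 lower in stage I (4.06% of all genes called; 4.07% without the libraries numbered 3, with the same counts), and 1 was higher and 5 lower in stage II (8.03%; 8.1%, again with the same counts). In stage III, 2 were higher and 11 lower, where 33.4% of all genes were called and 14.9% lower. When the libraries numbered 3 were left out, 15 were lower there, where 36.5% were called and 16.7% lower. The stage III count fell from 13 to 4 without library 2 of IL-33 stage III, and to 8 without library 1. In stage IV, 2 were higher and 2 lower (12.2% of all genes called), and 3 and 4 without the libraries numbered 3 (11.9%).

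Markers of other cells moved beside these differences, some lists lower and some higher under IL-33. Under IL-33, 10 of 14 monocyte and macrophage markers and 8 of 10 neutrophil markers were lower in stage II, and in stage III 11 of 14 were lower with 1 higher, and 10 of 10 were lower. Averaged over stages the counts were the same as in stage III, and 5 of 8 dendritic cell markers were lower. In stage IV, 2 of 14 monocyte and macrophage genes were lower and 1 higher, while their sum was 3809 CPM on average against 2182 in the steady state. Basophil and mast cell genes went the other way in stages III and IV, with 4 of 7 higher and 1 lower in each, and summed to 2336 against 416 CPM in stage III and 1465 against 376 in stage IV. Their part in the members' results was not tested.

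**Figure D1:**
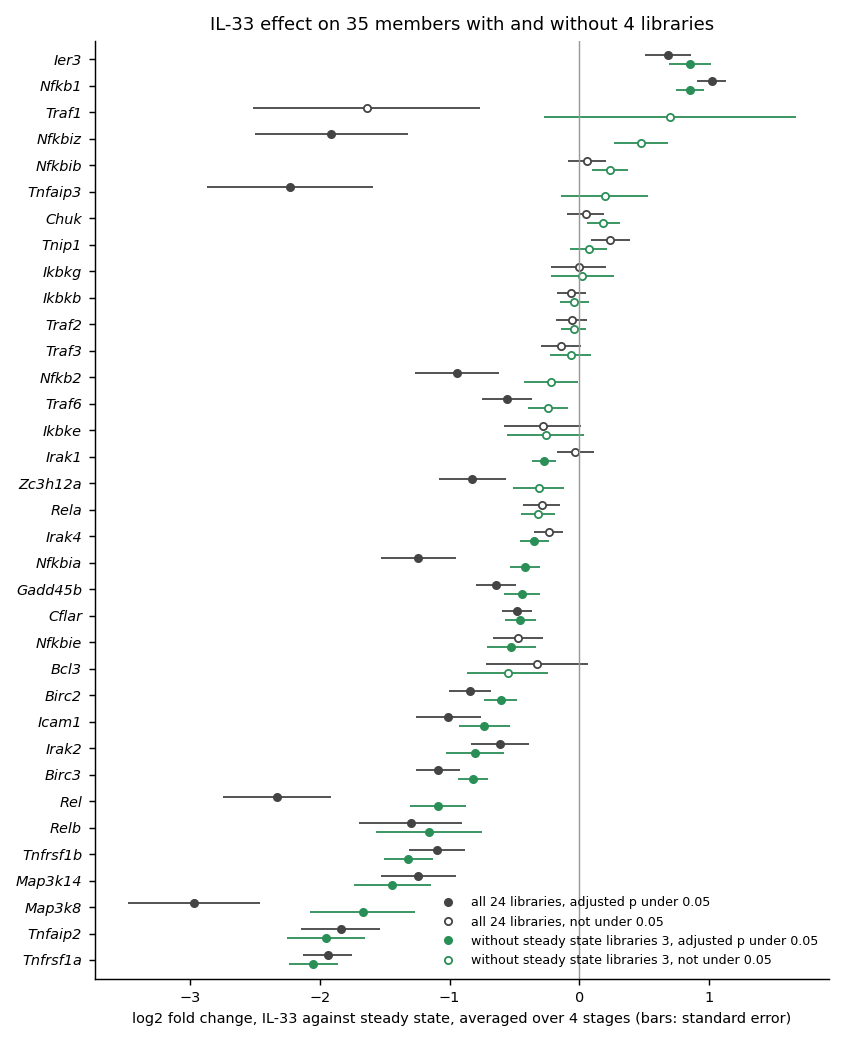
Log2 difference of IL-33 against steady state averaged over the 4 stages (x axis, with SE bars) for each member but Cd83, whose level was near 0 in most libraries, with and without the 4 steady state libraries numbered 3; filled points have an adjusted p under 0.05. Nfkb1 lies right of 0 in both fits, while Nfkbiz and Tnfaip3 move from -1.91 and -2.23 to 0.48 and 0.20, where neither is called.

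Among the subunits, Nfkb1, which encodes p105 and its product p50, was the 1 member called higher under IL-33 at every stage. In stage I it stood at 113, 110 and 73.5 CPM in steady state libraries 1, 2 and 3 and at 222, 203 and 238 under IL-33. In stage II the values were 132, 109.5 and 110 against 260.5, 296 and 234, in stage III 211, 141 and 131 against 260, 306 and 235, and in stage IV 135, 121 and 100.1 against 247, 284 and 188. The 2 conditions did not overlap at any stage. The log2 differences were 1.16, 1.17, 0.73 and 1.01 from stage I to IV, with edgeR adjusted p of 0.00494, 0.00221, 0.0137 and 0.00373. The average was 1.02 (SE 0.11, edgeR adjusted p = 2.88e-07), and 0.86 without the libraries numbered 3 (edgeR adjusted p = 5.49e-06). By stage the differences without those libraries were 0.94, 1.02, 0.60 and 0.87, with edgeR adjusted p of 0.0185, 0.00623, 0.0353 and 0.0115. Only the stage III call was lost when a library was left out: without library 2 or 3 of the steady state (edgeR adjusted p = 0.0607 and 0.0637) or library 2 of IL-33 (adjusted p = 0.07). Nfkb1 was not called between stages in either condition, and its IL-33 effect was not called as differing among stages (edgeR adjusted p = 0.641).

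Rel, the gene of the subunit c-Rel, was lower under IL-33 instead. In stage I it was at 18.9, 39.1 and 152 CPM in the 3 steady state libraries and at 12.4, 6.46 and 6.97 under IL-33. In stage III it was at 36.5, 35 and 126 against 15, 8.64 and 17.1 CPM, again with no overlap and with the third steady state library far above the others. In stage II (15.8, 13.7 and 145 against 15.8, 8.86 and 14.7 CPM) the groups overlapped, and in stage IV (27.8, 31.9 and 126 against 25, 10.5 and 14.5) they did not. The calls were in stages I and III, with log2 differences of -3.01 and -2.28 (edgeR adjusted p = 0.046 and 0.0372). The averaged difference was -2.33 (SE 0.41, edgeR adjusted p = 0.000124). Without all 4 libraries numbered 3 the average shrank to -1.09 and remained called (adjusted p = 0.000611), as did the differences of -1.79 in stage I (adjusted p = 0.0231) and -1.40 in stage III (adjusted p = 0.0153). Leaving out the third steady state library of 1 stage alone ended the call there, at edgeR adjusted p = 0.299 in stage I and 0.219 in stage III. The stage I call was also lost without any of the other libraries but steady state library 1, at an adjusted p of up to 0.242, and the stage III call without any 1 IL-33 library, at an adjusted p of up to 0.135.

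Relb, the transactivating partner of p52, was nearly silent early and appeared late. In the steady state it rose from 1.29, 2.3 and 7.71 CPM in stage I and 0.11, 6.2 and 2.11 in stage II to 17.7, 11 and 6.26 in stage III and 24.4, 23.5 and 31.9 in stage IV. Under IL-33 it stayed at 0.811, 1.83 and 1.28 CPM in stage I, 1.07, 2.34 and 2.77 in stage II and 1.97, 0.871 and 2.81 in stage III, and stood at 24.2, 13.2 and 15.2 in stage IV. The increase from stage I to IV was 7-fold in the steady state (edgeR adjusted p = 0.00769) and 13.4-fold under IL-33 (adjusted p = 0.00112), with no overlap in either. The steady state rise without the libraries numbered 3 was 13.4-fold (adjusted p = 0.00476), and that under IL-33 13.6-fold (adjusted p = 0.000633). Under IL-33 the rise fell on the last step, 9.3-fold from stage III to IV (edgeR adjusted p = 0.0055; adjusted p = 0.00273 without the libraries numbered 3). In stage III Relb was 6.18-fold lower under IL-33 (edgeR adjusted p = 0.0165; adjusted p = 0.00843 without the libraries numbered 3), a call lost without library 1 of the steady state (adjusted p = 0.0615) or library 1 or 2 of IL-33 (adjusted p = 0.0517 and 0.0861). Whether the effect differed among stages was not called (edgeR adjusted p = 0.388).

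Nfkb2, the gene of p100 and p52, rose with stage under IL-33, from 11.4, 7.59 and 13.5 CPM in stage I to 51.9, 53.7 and 47.4 in stage IV, 4.7-fold (edgeR adjusted p = 0.00955; adjusted p = 7.79e-05 without the libraries numbered 3). In the steady state its stage I values were 8.74, 9.8 and 94.1 CPM, spread widely by the third library, against 68.6, 63.9 and 70.1 in stage IV. That change of 0.84 on the log2 scale was not called (edgeR adjusted p = 0.302), and it was 2.86 and called without the libraries numbered 3 (adjusted p = 0.000127) and with the replicate block (adjusted p = 0.0218). Its average IL-33 effect was -0.94 (edgeR adjusted p = 0.0248) and -0.22 without the libraries numbered 3 (adjusted p = 0.459). The average was also lost without the third steady state library of stage I (adjusted p = 0.152), II (adjusted p = 0.06) or III (adjusted p = 0.0512) alone.

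Rela, the gene of p65, had the highest level of the subunits per kilobase of annotated exons and was called once. The length joined all exons annotated for a gene, 12061 bases for Nfkb1 and 3072 for Rela. In CPM, Nfkb1 averaged more than Rela over the 24 libraries (185.8 against 106.2). It averaged less in steady state stages I (98.7 against 104.3) and IV (118.5 against 128.6). Rela lay between 48.2 and 178.7 CPM over the 24 libraries. Its 1 call was the rise under IL-33 from 83.8, 48.2 and 75.7 CPM in stage I to 142, 135 and 105 in stage IV, 1.84-fold (edgeR adjusted p = 0.0149; adjusted p = 0.00328 without the steady state libraries numbered 3). That call was lost without library 1 of stage IV (adjusted p = 0.0536) or library 2 of stage I (adjusted p = 0.0889). Per kilobase, the subunit means in IL-33 stage IV were 41.4 CPM for Rela, 19.9 for Nfkb1, 11.1 for Nfkb2, 4.52 for Relb and 2.23 for Rel. In steady state stage IV they were 41.9, 9.83, 14.7, 6.85 and 8.27 CPM per kilobase in the same order of genes.

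**Figure D2:**
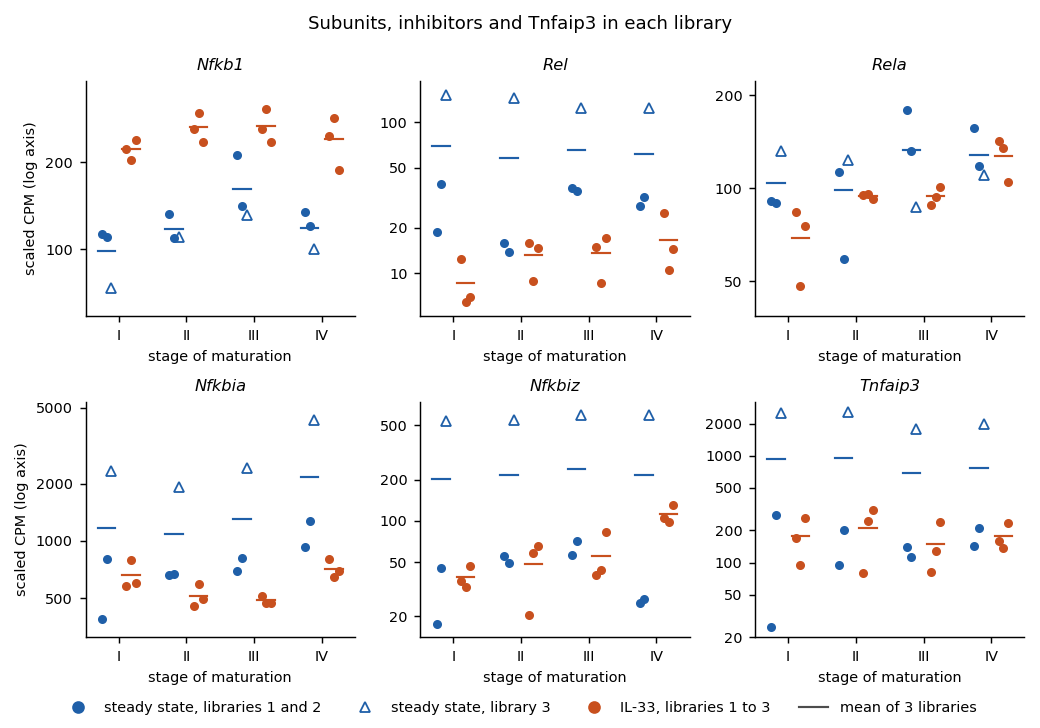
Scaled CPM per library (y axis, log scale) of Nfkb1, Rel, Rela, Nfkbia, Nfkbiz and Tnfaip3 by stage and condition, with open triangles for the steady state libraries numbered 3. Nfkb1 is higher under IL-33 at each stage, and for Rel, Nfkbia, Nfkbiz and Tnfaip3 the triangles lie above all other points.

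In the IkB family, Nfkbia was the most abundant member per kilobase, at 629 CPM per kilobase over the 24 libraries. Its steady state values were 388, 802 and 2331 CPM in stage I, 663, 672 and 1918 in stage II, 698, 812 and 2406 in stage III and 929, 1266 and 4316 in stage IV. Under IL-33 they were 576, 797 and 602 CPM in stage I, 452.9, 590.5 and 496 in stage II, 512, 474 and 472 in stage III and 803, 647 and 693 in stage IV. The IL-33 libraries were closely spaced, and the third steady state library was the highest at each stage. On average Nfkbia was lower under IL-33, with a log2 difference of -1.24 (SE 0.29, edgeR adjusted p = 0.00159), and of -0.42 without the libraries numbered 3 (edgeR adjusted p = 0.00923). With the replicate block it rose from steady state stage I to IV by 0.91 (edgeR adjusted p = 0.000563), which was not called without the block (adjusted p = 0.214).

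Nfkbie, which encodes IkB-epsilon, rose in both conditions but at different steps. In the steady state it was at 10.3, 15.4 and 21.9 CPM in stage I, 24.3, 21.9 and 25.6 in stage II, 92.9, 80.7 and 37.1 in stage III and 62.4, 64.2 and 54.2 in stage IV. Under IL-33 the values were 18.6, 10.4 and 23.8 CPM in stage I, 18.6, 7.4 and 18.7 in stage II, 36.7, 20.6 and 25.1 in stage III and 52.7, 69.9 and 59.3 in stage IV. The steady state rise fell between stages II and III, 2.93-fold (edgeR adjusted p = 0.00351; adjusted p = 0.00231 without the libraries numbered 3), and the IL-33 rise between stages III and IV, 2.21-fold (adjusted p = 0.0278; adjusted p = 0.00873 without them). Over stages I to IV it was 3.78-fold in the steady state (adjusted p = 0.000411) and 3.44-fold under IL-33 (adjusted p = 0.000708), and without the libraries numbered 3 these were 4.99-fold and 3.53-fold. In stage III it was 2.56-fold lower under IL-33 (edgeR adjusted p = 0.00922; adjusted p = 0.00159 without the libraries numbered 3). The IL-33 step was lost without library 2 or 3 of either stage, at an adjusted p of up to 0.129, and the stage III difference without steady state library 1 (adjusted p = 0.0514) or IL-33 library 2 (adjusted p = 0.058). The difference among stages was not called (edgeR adjusted p = 0.132).

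Nfkbiz, the gene of the nuclear cofactor IkB-zeta, was called lower under IL-33 on average with the libraries numbered 3 and was not called without them. In stage IV it stood at 25.3, 26.7 and 593 CPM in the steady state and 106, 98.9 and 132 under IL-33, so that the IL-33 libraries lay above 2 steady state libraries and below the third. In stage I the values were 17.6, 45.2 and 542 against 36.5, 33 and 46.5 CPM. The average IL-33 difference was -1.91 (edgeR adjusted p = 0.0133). It was not called with a replicate block shared by both conditions (adjusted p = 0.151), whose same-numbered libraries did not pair. Without the libraries numbered 3 it was 0.48 (adjusted p = 0.082). In stage IV alone it was then 4.2-fold higher under IL-33 (adjusted p = 0.00415). Leaving out library 3 of 1 stage alone ended the average call for stage I, II or IV, at adjusted p = 0.07, 0.0501 and 0.0818.

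Bcl3, a nuclear IkB protein that works with p50 and p52, was highest on average in stage IV of both conditions. It was already at 3.64, 15.8 and 13.5 CPM in steady state stage II. Under IL-33 it rose from 5.61, 1.4 and 2.48 CPM in stage I to 14.5, 27.3 and 24.1 in stage IV, 6.9-fold (edgeR adjusted p = 0.00907; adjusted p = 0.000548 without the steady state libraries numbered 3). In the steady state it went from 1.99, 3.67 and 3.74 to 22.6, 19.9 and 3.02 CPM, 4.83-fold (edgeR adjusted p = 0.0284), and 7.6-fold without the libraries numbered 3 (adjusted p = 0.00353). The third stage IV library lay within the range of stage I, the call was lost with the block (adjusted p = 0.0739), and it was lost without any 1 of the other 5 libraries, at an adjusted p of up to 0.0993. Nfkbib, the gene of IkB-beta, was called in none of the 14 comparisons of the fit with all libraries and no block, and lay between 35.3 and 118 CPM.

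The kinases of the IL-1 and IL-33 receptor complex, the IRAKs, moved with stage. Irak4, which starts the IRAK cascade, was at 48.6, 42.1 and 35.9 CPM in steady state stage II and 78.2, 119 and 91.8 in stage III, a 2.28-fold rise (edgeR adjusted p = 0.000254; adjusted p = 0.00387 without the libraries numbered 3). Under IL-33 it was at 50.6, 41.5 and 43.9 CPM in stage II and 39.4, 55.6 and 47.7 in stage III, and rose 2.08-fold to 101, 102 and 94.4 in stage IV (adjusted p = 0.000811; adjusted p = 0.000304 without the steady state libraries numbered 3). Stage IV of the steady state held 83.9, 105 and 76.2 CPM. In stage III it was 2.02-fold lower under IL-33, with no overlap (adjusted p = 0.00109; adjusted p = 0.00133 without the libraries numbered 3), whereas in stage IV the 2 conditions overlapped. From stage I to IV it rose 2.27-fold in the steady state (adjusted p = 0.00016) and 2.91-fold under IL-33 (adjusted p = 6.25e-06), calls that held in every fit without 1 library and without those numbered 3 (edgeR adjusted p = 0.000526 and 3.78e-06).

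Irak2, which sustains the same signal, rose 2.35-fold from 10.5, 24.5 and 15.2 CPM in steady state stage I to 45, 51.1 and 21.7 in stage IV (edgeR adjusted p = 0.0321; adjusted p = 0.0252 without the libraries numbered 3), with overlapping groups. That call was lost without library 1 of stage I, at adjusted p = 0.131, and without 3 others. Under IL-33 stage IV held 15.2, 77.1 and 56.8 CPM against 17.2, 11.5 and 14.8 in stage I, 3.42-fold (adjusted p = 0.00321; adjusted p = 0.00122 without the steady state libraries numbered 3), with library 1 of stage IV inside the stage I range. In stage III it was 2.83-fold lower under IL-33 (adjusted p = 0.0141; adjusted p = 0.00349 without library 3 of each steady state stage), lost without steady state library 2 (adjusted p = 0.064) or IL-33 library 2 (adjusted p = 0.063) or 3 (adjusted p = 0.0595). Irak1 fell under IL-33 from 155, 114 and 172 CPM in stage I to 80.3, 97.5 and 87.4 in stage IV, 1.66-fold (adjusted p = 0.0391; adjusted p = 0.00171 without the steady state libraries numbered 3). This last call was lost without any of 5 libraries, at an adjusted p of up to 0.136.

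Map3k14, the gene of NIK, was low until the last steady state stage. The step from stage III to IV there was not called in the edgeR fit of all libraries, and was called with the replicate block. Steady state values were 8.54, 13.3 and 6.29 CPM in stage I, 3.31, 12.6 and 2.2 in stage II, 10.1, 25 and 18.9 in stage III and 51.1, 66.4 and 54 in stage IV, 6.1-fold higher in IV than in I (edgeR adjusted p = 0.0011; adjusted p = 0.00696 without the libraries numbered 3). Under IL-33 it was at 4.26, 1.92 and 4.31 CPM in stage I, 4.09, 5.42 and 7.25 in stage II, 4.37, 6.5 and 7.22 in stage III and 5.31, 19.7 and 22.5 in stage IV, a 4.51-fold rise (adjusted p = 0.00466; adjusted p = 0.00266 without the steady state libraries numbered 3). The steady state step from stage II to III (2.98-fold, adjusted p = 0.0386) was not called without the libraries numbered 3 (adjusted p = 0.229) or without any of 4 single libraries, at an adjusted p of up to 0.138. Library 1 of IL-33 stage IV lay far below the other 2 of its group. Under IL-33 it was 2.98-fold lower in stage III (adjusted p = 0.039) and 3.61-fold lower in stage IV (adjusted p = 0.0366), and -1.53 and -1.93 on the log2 scale without the libraries numbered 3 (adjusted p = 0.0473 and 0.0342). Both calls were lost without any of 5 single libraries, at an adjusted p of up to 0.14 and 0.148, while the averaged log2 difference of -1.24 (adjusted p = 0.00165) was called in every such fit and was -1.44 without the libraries numbered 3 (adjusted p = 0.00077).

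Map3k8, the gene of the kinase TPL2 that p105 holds inactive, was lower under IL-33 on average and in stages II and III. In stage II it was at 8.16, 18.1 and 51.8 CPM in the steady state and 1.6, 0.732 and 0.224 under IL-33, and in stage III at 4.49, 6.17 and 16.2 against 1.03, 1.21 and 0.883. The groups did not overlap, and the third steady state library was the highest at each of these stages. The IL-33 groups held only 31 and 41 counts over 3 libraries there, so the size of these differences is uncertain. Stage I, where the groups overlapped (0.695, 1.19 and 10.1 against 3.38, 0.698 and 1.1 CPM), and stage IV, where they did not (7.55, 4.34 and 40.5 against 3.86, 1.61 and 2.91), were not called. The averaged difference was -2.97 on the log2 scale (edgeR adjusted p = 8.39e-05), and -1.67 without the libraries numbered 3 (adjusted p = 0.00308). The stage II difference was -4.93 (adjusted p = 0.00765), and -4.04 without those libraries (adjusted p = 0.00536), a call lost without IL-33 library 2 (adjusted p = 0.0536). The stage III difference was -3.09 (adjusted p = 0.0233), and -2.35 without them (adjusted p = 0.0294), a call lost without steady state library 3 (adjusted p = 0.1) or any 1 IL-33 library.

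The subunits of the IKK complex moved less. Ikbkb, the gene of IKK-beta, rose 1.95-fold from 99.5, 97.2 and 165 CPM in steady state stage II to 282, 199 and 226 in stage III (edgeR adjusted p = 0.00221) and 1.75-fold from stage I to IV under IL-33 (adjusted p = 0.00585), calls that held without any 1 library and without the libraries numbered 3 (edgeR adjusted p = 0.000721 and 0.00142). Chuk, the gene of IKK-alpha, was at 50.9, 47.5 and 90.5 CPM in steady state stage I and 124, 81.9 and 179 in stage II, 2.04-fold higher with overlapping groups (adjusted p = 0.0394; adjusted p = 0.0355 without the libraries numbered 3), and lost without any of 4 libraries at an adjusted p of up to 0.21. Ikbke, a related kinase, fell from 13.5, 13.3 and 28.6 CPM in steady state stage I to 6.95, 1.85 and 9.46 in stage IV (adjusted p = 0.0379), and was not called without the libraries numbered 3 (adjusted p = 0.0679) or without library 3 of stage I (adjusted p = 0.174) or library 1 or 2 of stage IV alone (adjusted p = 0.0668 and 0.163). Ikbkg, the gene of the scaffold NEMO, was called in no comparison and lay between 15 and 68.5 CPM.

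**Figure D3:**
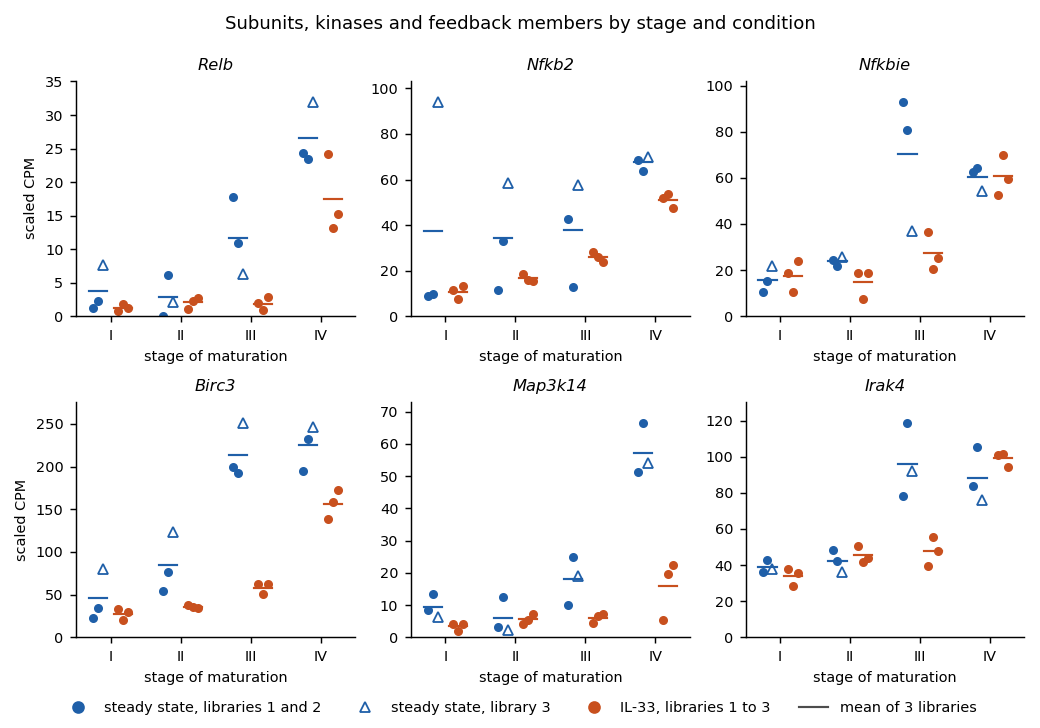
Scaled CPM per library (y axis, linear) of Relb, Nfkb2, Nfkbie, Birc3, Map3k14 and Irak4 by stage and condition, with open triangles for the steady state libraries numbered 3. Nfkbie, Birc3 and Irak4 are already high in steady state stage III, and under IL-33 in stage IV.

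Of the receptors, Tnfrsf1a, which encodes TNF receptor 1, was lower under IL-33 from stage II on. In stage II it was at 62, 60.6 and 74.1 CPM in the steady state and 13.5, 9.89 and 18.1 under IL-33. In stage III it was at 76.2, 74.7 and 31.6 against 19.5, 12.1 and 12.8, and in stage IV at 53.2, 38 and 49 against 4.06, 6.43 and 7.28. The 2 conditions were apart at each of these stages, while in stage I (29.9, 22 and 23 against 25.8, 9.86 and 16.9) they overlapped. The decrease under IL-33 was 4.74-fold in stage II, 4.1-fold in stage III and 7.87-fold in stage IV (edgeR adjusted p = 0.000737, 0.000244 and 1.95e-05), and the effect differed among stages (adjusted p = 0.0103). The folds without the libraries numbered 3 were 4.76, 5.1 and 7.9 and the test among stages gave an adjusted p of 0.0178. Maturation took it up in the steady state, 1.87-fold from stage I to IV (adjusted p = 0.0481, and 0.111 without the libraries numbered 3), and down under IL-33, 2.96-fold (adjusted p = 0.00175; adjusted p = 0.00122 without them). The steady state rises from stage I to II (2.63-fold, adjusted p = 0.0302; adjusted p = 0.0952 without the libraries numbered 3) and I to IV were lost without single libraries at an adjusted p of up to 0.123 and 0.135.

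Tnfrsf1b, the gene of TNF receptor 2, was at 99.4, 69.4 and 59.2 CPM in steady state stage II and 18.9, 13.3 and 17.2 under IL-33, 4.6-fold lower (edgeR adjusted p = 0.00341; adjusted p = 0.000568 without the libraries numbered 3). In the steady state it fell 2.94-fold to 41.6, 26.1 and 9.86 CPM in stage III (adjusted p = 0.00802; adjusted p = 0.0152 without them), and the averaged IL-33 difference was -1.10 (adjusted p = 0.000367), and -1.32 without the libraries numbered 3 (adjusted p = 2.22e-05). Its effect was not called as differing among stages (adjusted p = 0.13).

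Among the TRAF adaptors, Traf1 and Traf2 were called along maturation under IL-33. Traf1, an NF-kB target that modulates TRAF2, was at 0, 0.174 and 0 CPM in IL-33 stage I, from 2 counts in all, and at 2.9, 9.03 and 5.18 in stage IV, from 188 counts, and was called higher there (edgeR adjusted p = 0.0181; adjusted p = 0.00519 without the steady state libraries numbered 3), a call lost without library 1 or 3 of stage I. In the steady state its 3 stage IV libraries were at 0.695, 0.277 and 15.2 CPM. Traf2 fell 1.61-fold from 78.2, 72.3 and 85.3 to 53.8, 49.95 and 42.3 CPM from stage I to IV under IL-33 (adjusted p = 0.0236; adjusted p = 0.00466 without the steady state libraries numbered 3), lost without library 2 or 3 of stage IV or library 3 of stage I, at an adjusted p of up to 0.0925. Traf6, the ubiquitin ligase next to the IRAKs, was lower under IL-33 on average, with a log2 difference of -0.56 (adjusted p = 0.0245). That call was lost without the 4 libraries numbered 3 (adjusted p = 0.244 at a difference of -0.24) or without that of stage I, II or IV alone, at an adjusted p of up to 0.0747. Traf3 was called in no comparison of the fit with all libraries and no block, and lay between 19.2 and 68.7 CPM.

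**Figure D4:**
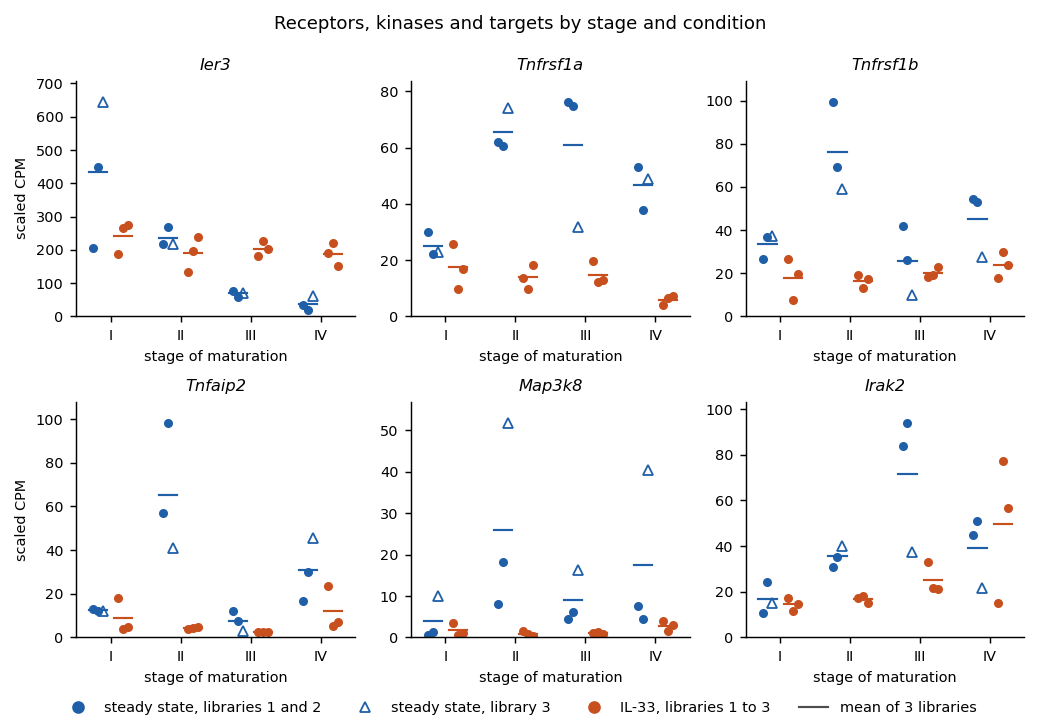
Scaled CPM per library (y axis, linear) of Ier3, Tnfrsf1a, Tnfrsf1b, Tnfaip2, Map3k8 and Irak2 by stage and condition, with open triangles for the steady state libraries numbered 3. Ier3 falls in the steady state and stays level under IL-33, and the highest points of Tnfrsf1a and Tnfaip2 are steady state libraries.

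Among the feedback genes, Birc3, which encodes the ubiquitin ligase cIAP2, rose along maturation in both conditions. Steady state libraries held 22.8, 34.1 and 80.5 CPM in stage I, 54.5, 77 and 123 in stage II, 199, 192 and 251 in stage III and 195, 232 and 246 in stage IV. Under IL-33 it was at 33.6, 20.9 and 29.3 CPM in stage I, 37.5, 36 and 34.5 in stage II, 62.9, 50.4 and 61.9 in stage III and 138, 159 and 173 in stage IV. All 3 libraries of stage IV were above all 3 of stage I in each condition, and stage III was above II. The rise from stage I to IV was 4.9-fold in the steady state (edgeR adjusted p = 1.31e-05) and 5.6-fold under IL-33 (adjusted p = 4.23e-06), and 7.62-fold and 5.73-fold without the libraries numbered 3, calls that held without any 1 library. Under IL-33 it was 3.67-fold lower in stage III (adjusted p = 0.000198; adjusted p = 1.05e-05 without the libraries numbered 3) and 2.36-fold lower in stage II (adjusted p = 0.0235; adjusted p = 0.0118 without them), the latter lost without steady state library 3 of that stage (adjusted p = 0.153) or any 1 IL-33 library.

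Its relative Birc2, the gene of cIAP1, was lower under IL-33 on average, with a log2 difference of -0.84 (edgeR adjusted p = 0.000273), and of -0.61 without the libraries numbered 3 (adjusted p = 0.00101). In stage III it was at 97.2, 103 and 113 against 46.3, 41.9 and 60.9 CPM, 2.1-fold lower (adjusted p = 0.0134; adjusted p = 0.00424 without the libraries numbered 3), lost without IL-33 library 1 (adjusted p = 0.0512) or 2 (adjusted p = 0.0687). Cflar, which encodes the caspase-8 inhibitor c-FLIP, was at 81.2, 93.5 and 96.7 against 56.6, 46.4 and 55.6 CPM in stage III, 1.71-fold lower (adjusted p = 0.0108; adjusted p = 0.0203 without the libraries numbered 3), lost without IL-33 library 2 (adjusted p = 0.0642).

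Tnfaip3 encodes A20, the deubiquitinase that ends signalling from TRAF6 and the TNF receptors. Its steady state values were 24.9, 279 and 2507 CPM in stage I, 94.3, 200.1 and 2572 in stage II, 141, 112 and 1795 in stage III and 142, 209 and 1964 in stage IV, with library 3 of each stage at 1795 CPM or more. Under IL-33 they were 170.4, 95.1 and 262 CPM in stage I, 80.2, 245 and 309.8 in stage II, 81.4, 127 and 242 in stage III and 159, 136 and 232 in stage IV. With the third libraries set aside, the 2 conditions overlapped at each stage. The averaged log2 difference changed from -2.23 (edgeR adjusted p = 0.0088, and 0.0592 with the block shared by both conditions) to 0.20 (adjusted p = 0.71).

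Tnip1, whose product binds A20, was at 17.5, 25.1 and 22.2 CPM in steady state stage II and 48.3, 56.2 and 27.1 in stage III, 2.03-fold higher (edgeR adjusted p = 0.0119; adjusted p = 0.00581 without the libraries numbered 3). That call was lost without library 1 of stage II (adjusted p = 0.0542) or library 2 of stage III (adjusted p = 0.0702). Under IL-33 it rose 2.19-fold from 28.8, 21.1 and 37.1 CPM in stage I to 59.2, 69.9 and 61.4 in stage IV (adjusted p = 0.00398; adjusted p = 0.000788 without the steady state libraries numbered 3), a call kept without any 1 library. Zc3h12a, the gene of the RNase Regnase-1, rose from 3.28, 6.65 and 21.5 to 23, 25.9 and 56.8 CPM over stages I to IV of the steady state, 3.34-fold (adjusted p = 0.0099; 4.99-fold without the libraries numbered 3), lost without library 1 or 2 of stage I or library 3 of stage IV, at an adjusted p of up to 0.0822. Under IL-33 it rose from 5.41, 5.58 and 5.5 to 25.8, 27.2 and 19.1 CPM, 4.37-fold (adjusted p = 0.00242; adjusted p = 7.47e-05 without the steady state libraries numbered 3), a call kept without any 1 library. Its averaged IL-33 difference of -0.82 (adjusted p = 0.0149) was not called without the libraries numbered 3 (adjusted p = 0.238 at -0.31) or without that of stage I alone (adjusted p = 0.0589).

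Of the further targets, Ier3, an early response gene that promotes survival, went different ways along maturation in the 2 conditions. Steady state levels fell from 204, 449.5 and 644 CPM in stage I and 219, 267 and 218 in stage II to 76.5, 59.6 and 71 in stage III and 33.9, 18.5 and 61 in stage IV. Under IL-33 it stayed at 186, 266 and 274 CPM in stage I, 134, 196 and 238 in stage II, 181, 228 and 202 in stage III and 192, 219 and 152 in stage IV. The steady state fall was 11.5-fold (edgeR adjusted p = 2.3e-07) and 12.2-fold without the libraries numbered 3 (adjusted p = 4.9e-07). Under IL-33 it was 2.95-fold higher in stage III (adjusted p = 0.00189) and 4.98-fold higher in stage IV (adjusted p = 0.000175), with no overlap, and 2.98-fold and 6.93-fold without those libraries. The IL-33 effect differed among stages (adjusted p = 0.000266; adjusted p = 8.06e-05 without the libraries numbered 3), and all of these calls held without any 1 library.

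Tnfaip2, a TNF-induced gene of membrane protrusions, peaked in steady state stage II. Its steady state values were 13, 12 and 12.3 CPM in stage I, 57, 98.2 and 40.9 in stage II, 12, 7.54 and 2.76 in stage III and 16.6, 30.1 and 45.5 in stage IV. Under IL-33 the values were 18, 4.01 and 4.68 CPM in stage I, 3.74, 4.1 and 4.86 in stage II, 2.57, 2.35 and 2.57 in stage III and 23.7, 5.18 and 7.28 in stage IV. In stage II it was 15.4-fold lower under IL-33 (edgeR adjusted p = 0.000643; adjusted p = 0.000337 without the libraries numbered 3), beside the lower neutrophil and monocyte markers given above. The steady state steps were 5.25-fold up (adjusted p = 0.0252; adjusted p = 0.0356 without the libraries numbered 3), 8.79-fold down (adjusted p = 0.000581; adjusted p = 0.00225 without them) and 4.13-fold up (adjusted p = 0.0356). Of these, the first was lost without single libraries at an adjusted p of up to 0.097 and the last at an adjusted p of up to 0.139 and without all the libraries numbered 3 (adjusted p = 0.258). Its rise at the last IL-33 step, 4.81-fold (adjusted p = 0.00845; adjusted p = 0.00384 without the steady state libraries numbered 3), was lost without library 1 of stage IV (adjusted p = 0.122), the highest of that group.

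Icam1, the adhesion molecule bound by leukocyte integrins, rose 2.92-fold under IL-33 from 12.3, 7.33 and 12.5 CPM in stage I to 48.5, 25.2 and 20.2 in stage IV (edgeR adjusted p = 0.0161; adjusted p = 0.00128 without the steady state libraries numbered 3), lost without library 1 of stage IV (adjusted p = 0.115) or library 2 of stage I (adjusted p = 0.0756). In the steady state it was at 11.4, 13.55 and 67.6 CPM in stage I and 41.1, 52.6 and 49.5 in stage IV, not called in the fit of all libraries. With library 3 set aside these stages averaged 12.5 and 46.8 CPM. On average Icam1 was lower under IL-33, with a log2 difference of -1.01 (adjusted p = 0.00279), and of -0.73 without the libraries numbered 3 (adjusted p = 0.00655). Gadd45b, a stress sensor induced by NF-kB, rose from 35.5, 30.3 and 68.9 to 74.6, 77.2 and 97.2 CPM over stages I to IV of the steady state, 1.85-fold (adjusted p = 0.0228; adjusted p = 0.00357 without the libraries numbered 3), lost without library 1 or 2 of stage I or library 3 of stage IV at an adjusted p of up to 0.124. Its averaged IL-33 difference was -0.64 (adjusted p = 0.00205), and -0.44 without those libraries (adjusted p = 0.0169). Cd83, a surface protein of activated antigen-presenting cells, had 0 to 31 counts per IL-33 group and was at 0, 1.11 and 10.9 CPM in the 3 libraries of steady state stage I and 0, 0 and 67.5 in stage II. Its averaged call (adjusted p = 0.0022) was lost without the third library of stage II or III alone and without all 4, where steady state stages II and III had no count, so that no fold or direction is given.

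Other genes of the pathway were counted from a list of 48, of which 46 were tested and 45 without the libraries numbered 3. From stage I to IV, 20 rose and 4 fell in the steady state (18 and 3 without the libraries numbered 3), and 20 rose and 2 fell under IL-33 (21 and 3), with medians of 0.71 and 0.93 on the log2 scale. Over all genes tested, 43.8% and 44.1% were called there and 21.1% and 21.2% were higher, with medians of -0.028 and -0.032. Averaged over stages, 2 of the list were higher and 11 lower under IL-33 (3 and 8), with a median of -0.15. Of all genes, 38.1% were called in that average and 16.7% were lower, with a median of 0.052. The IL-33 receptor gene Il1rl1 averaged 37.6, 29.8, 43.7 and 90.5 CPM from stage I to IV in the steady state and 44.2, 72.3, 98.3 and 247 under IL-33, 1.03 higher on the log2 scale on average (SE 0.16, edgeR adjusted p = 2.64e-05), and 1.05 without the libraries numbered 3 (adjusted p = 0.000146). Its co-receptor Il1rap fell at the last step, from 33.3 ± 4.16 to 8.57 ± 3.23 CPM in the steady state (SD, n = 3 libraries each) with edgeR adjusted p = 0.00456, and from 32.6 to 13.7 CPM under IL-33 (adjusted p = 0.0248). Both held without the libraries numbered 3 (adjusted p = 0.0255 and 0.0213) and were lost in at least 1 fit without a single library. The adaptor gene Myd88 rose in the steady state from 61 CPM in stage I to 259 in stage III and 215 in stage IV. Under IL-33 it went from 79.2 through 137 to 325 CPM, so that in stage III its log2 difference from the steady state was -0.93 (adjusted p = 0.00206), and its effect differed among stages (adjusted p = 0.00297; adjusted p = 0.00317 without the libraries numbered 3).

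Other textbook target genes were counted from a list of 38, of which 35 were tested and 32 without the libraries numbered 3. From stage I to IV, 19 rose and 2 fell in the steady state (21 and 2 without the libraries numbered 3) and 22 rose and 2 fell under IL-33 (23 and 3), with medians of 2.52 and 2.6 on the log2 scale. Over all genes tested, 43.8% and 44.1% were called there and 21.1% and 21.2% were higher. Averaged over stages, 4 of the list were higher and 18 lower under IL-33, with a median of -0.96, and 10 were higher and 12 lower without the libraries numbered 3, with a median of -0.34. Of all genes, 38.1% were called in that average and 16.7% were lower, and 36.2% and 15.9% without those libraries. The higher targets included Vcam1, a vascular adhesion molecule, at 1561 against 146 CPM in stage III (edgeR adjusted p = 3.47e-05), and the cytokine gene Il6, at 60.2 against 11.1 in stage IV (adjusted p = 0.000459). Lower were the phosphodiesterase gene Pde4b, at 34.3 against 515 CPM in stage III (adjusted p = 0.000117), and the transcription factor gene Irf1, at 68.3 against 172 (adjusted p = 0.00364). The chemokine genes Ccl3 and Ccl4 rose from 39.97 and 6.45 CPM in stage I to 1417 and 367 in stage IV under IL-33 (adjusted p = 0.000289 and 3.17e-05). Each of these calls held without the libraries numbered 3.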

How the data were processed

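Full-length cDNA (SMART-Seq v4) from 24 sorted samples was made into Nextera XT libraries, per the labels' protocols. Reads were aligned with STAR 2.6.1a to mm10 and DESeq2 was used, per the submitters' processing notes. For the counting tool, its annotation and strand setting: not given in the sources used here. The libraries are unstranded, so reads of a gene and its antisense partner cannot be told apart. The deposited values are raw gene counts per library, as whole numbers made by the authors. Rows that name no gene were left out (reads in no feature and ambiguous reads). Reads in no feature were 17.8% to 30.5% of the counts in a steady state file and 9.19% to 16.6% in an IL-33 file. The conditions did not overlap, and the part of this difference in their comparisons was not tested.

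The counts were filtered with filterByExpr and scaled by TMM, and 8 groups were fitted together with edgeR 4.0.16 (limma 3.58.1, R 4.3.3), with Benjamini-Hochberg adjustment over all 12743 genes, in 14 comparisons. Scripts were tested on simulated data. The members and lists were chosen with earlier results of these data known. A panel of 11 members (5 subunits, Nfkbia, Nfkbie, Nfkbiz, Bcl3, Tnfaip3 and Tnip1) was named whatever its values, with up to 6 called members per comparison by size of change at 5 CPM or more, up to 3 genes of each other list by adjusted p, and Il1rl1, Il1rap and Myd88. Other members were named after their values were seen. Other lists covered pathway genes, targets, early stress genes and markers of eosinophils, monocytes and macrophages, neutrophils, basophils and mast cells, B cells, T and NK cells and dendritic cells. Replicates of 1 group differed by more than counting noise in all 24 pairs tested. P-values measure the spread between pools of mice, and those of the averaged comparison take same-numbered libraries of different stages as independent.

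Same-numbered libraries deviated together, with every pair's correlation above 0.1, for steady state stages I and II (0.117 to 0.298), III and IV (0.112 to 0.216) and I and IV (0.12 to 0.185), and for IL-33 stages I and II (0.154 to 0.238) and II and III (0.131 to 0.243), so these numbers were taken as pairs. Alternatives were DESeq2 1.42.0, DESeq2-type (RLE) factors, library totals, no filter, the replicate block, only the 2 groups compared, and each library left out. For steps along maturation and the test among stages, the block was fitted within each condition. For IL-33 against steady state, the block of each number was shared by both conditions, although same-numbered libraries did not pair between them.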

Additional observations from a re-analysis of the deposited data

Results flagged for a closer look

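The effect of IL-33 differed among the 4 stages for 4 members by edgeR's test of the interaction over stages, where 17.8% of all genes tested differed: Irak4 (adjusted p = 0.024), Tnfrsf1a (0.0103), Tnfaip2 (0.0271) and Ier3 (0.000266). Irak4 was lower under IL-33 in stage III and within the range of the steady state in stage IV, and its test gave 0.0624 without the 4 steady state libraries numbered 3 and up to 0.0991 without 1 library (library 1 of IL-33 stage III). Tnfrsf1a was lower from stage II on. The log2 difference of Tnfaip2 was -3.94 in stage II (SE 0.66), and its test gave 0.012 without the libraries numbered 3 and up to 0.0793 without 1 library (library 2 of steady state stage II). Ier3 was higher under IL-33 in stages III and IV, with 8.06e-05 without the libraries numbered 3. Without those libraries 7 members differed among stages, 3 of them among these 4, where 22.1% of all genes did.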

How the results depend on the processing

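Of 100 called member results, 58 were called in every fit that left out 1 library and 42 were lost in at least 1. DESeq2 and RLE scaling lost none of the calls, library totals 17, no filter 2 and the replicate block 3, and fits of only the 2 groups compared lost 11 of 74. Leaving out the 4 steady state libraries numbered 3 lost 9 calls with the same sign and 3 averaged IL-33 differences whose sign changed with no call: Nfkbiz at 0.48 and Tnfaip3 at 0.20 on the log2 scale, and Cd83 at a fitted 0.059, which its counts of 0 in most of the other libraries do not support as a difference. The cause was not tested.

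Counts of members called that moved by more than 1.5 times were as follows. The counts over all genes moved too, and the number of genes tested differed among the settings. From steady state stage I to II, 3 became 1 with library totals, 5 with the replicate block, 0 with only those 2 groups (fewer samples), and 0 to 4 without 1 library. Calls over all genes there went from 620 to 519 with library totals, 1069 with the block and 21 with only those groups. From II to III, 9 became 5 with only those groups, where 4405 calls over all genes became 1965. From III to IV, 1 became 3 with DESeq2, 4 with the block, 0 with only those groups and 0 to 1 without 1 library. There 1176 calls over all genes became 1851 with DESeq2, 1755 with the block and 245 with only those groups. From I to IV the range without 1 library was 7 to 14. Under IL-33, 0 became 1 from stage II to III with only those groups, where 11 calls over all genes became 678. From III to IV, 7 became 18 without the libraries numbered 3, 14 with the block and 17 with only those groups. Over all genes 3710 calls became 4766, 4370 and 5255 in the same order. For IL-33 against steady state, 2 in stage I became 6 with DESeq2 and 1 to 3 without 1 library, 13 in stage III became 4 to 13 without 1 library, and 4 in stage IV became 7 without the libraries numbered 3. Calls over all genes went from 518 to 1082 in stage I with DESeq2, and from 1550 to 1538 in stage IV without the libraries numbered 3. The 4 members that differed among stages became 7 without the libraries numbered 3 and 8 with the replicate block, where 2264 calls over all genes became 2860 and 3261. Counts over all genes in the fits without 1 library are not given here.

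With the block, the called results lost were Bcl3 from steady state stage I to IV and the averaged Nfkbiz and Tnfaip3 differences. Same-numbered libraries did not all pass the correlation of 0.1 in the other comparisons (the lowest was 0.058 from steady state stage II to III, 0.046 from IL-33 stage III to IV, 0.023 from I to IV and -0.092 between conditions). In the first 2 of these, 6 of 6 libraries correlated best with their own number, so pairs were not excluded there. For these 2 steps the block raised the calls over all genes from 4405 to 4893 and from 3710 to 4370. Members at a few counts, such as Traf1 and Cd83, have no fold that the depth supports.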

Other observations

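In IL-33 stage IV, library 1 stood apart from the other 2 for 4 members, chosen after their values were seen. The share of all genes for which it stood apart was not counted. Library 1 had 11666 genes with a count, against 13094 and 13227 in libraries 2 and 3, and the part of this in the members' values was not tested. Map3k14 was at 5.31, 19.7 and 22.5 CPM in libraries 1, 2 and 3, and Irak2 at 15.2, 77.1 and 56.8. Tnfaip2 was at 23.7, 5.18 and 7.28 and Icam1 at 48.5, 25.2 and 20.2, both with library 1 the highest. Library 1 was thus the lowest for the first 2 and the highest for the other two.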
